A study of Mus musculus with 10 samples.

Results

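The VEGF, angiopoietin and PEDF system is a set of 10 genes chosen by name, and all 10 were found among the 55487 distinct genes of the count table. They are the ligand genes Vegfa, Vegfc and Pgf, the receptor genes Kdr, Flt1 and Nrp1, the angiopoietin genes Angpt1 and Angpt2 with their receptor gene Tek, and Serpinf1, which encodes PEDF. RNA was measured in the RPE/choroid complex of mouse eyes, which joins the retinal pigment epithelium (RPE) to the vascular choroid behind it. The 5 ADQ samples came from iDTR Adiponectin-Cre mice, and the 5 control samples from iDTR mice without Cre. Both groups received diphtheria toxin by the intraperitoneal route. The daily dosing over 7 weeks is described for the mice with Cre. iDTR mice carry a Cre-dependent diphtheria toxin receptor, and this Cre is driven by the promoter of adiponectin, a gene of fat cells. Ages are not given. The labels do not say how many animals the samples represent; a p-value therefore speaks of the spread among these samples alone, and part of that spread may be technical.

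In the eye the RPE secretes VEGF-A towards the choroid, where it sustains the fenestrated capillaries through VEGF receptor 2, the product of Kdr. VEGF receptor 1, the product of Flt1, binds VEGF-A and placental growth factor tightly and is also made as a soluble form that traps ligand. Angiopoietin 1 activates the endothelial receptor Tie2, the product of Tek, and steadies vessels, while angiopoietin 2 often opposes it. PEDF, a serpin without protease-inhibiting activity that the RPE secretes in quantity, restrains vessel growth. Gene counts do not separate the soluble from the membrane form of Flt1, or the splice forms of Vegfa.

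Libraries held 43.6 M to 64.1 M counts in ADQ and 48.0 M to 51.0 M in control (M, 1000000 counts), and every gene of the set had at least 257 counts in every library, so the spread between samples and not counting error limits the values. All 10 RPE markers examined and all 15 endothelial markers examined had counts in every library. Summed RPE markers ran from 30294 to 46156 CPM in ADQ and from 35786 to 51938 CPM in control. CPM here are counts per 1000000 scaled by TMM, a method that corrects for differences in library composition. Adipoq was at 0.176 to 1.67 CPM in ADQ and at 4.06 to 7.93 CPM in controls 1 to 4, and control 5 had 0 counts, which allows up to 0.0623 CPM. Control 5 also stood apart from its group in some whole marker lists, but not in all. Its adipocyte marker mean was 0.91 log2 CPM, against 3.28 to 4.08 in controls 1 to 4, and lay below the ADQ range of 1.22 to 2.55. Its T, B and NK cell marker mean of 1.21 log2 CPM was the highest of the controls, which otherwise ran from -0.08 to 0.76, and below the ADQ range of 1.52 to 2.01. For corneal and conjunctival keratins its mean was 6.10 log2 CPM, where the other controls ran from -0.80 to 8.46 and ADQ from -2.76 to -1.85. Control 5 carries the control label and was kept as one. Over all genes 171 passed the test with it and 357 without it.

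Serpinf1 was by far the most abundant gene of the set, and the angiopoietin genes the least. Levels of different genes were compared as CPM per kilobase of annotated exon. Over the 10 libraries Serpinf1 averaged 572 CPM per kb, Pgf 68.6, Vegfa 47.8, Nrp1 15.2, Kdr 8.80, Vegfc 7.15, Tek 6.49, Flt1 5.57, Angpt1 4.53 and Angpt2 2.90 CPM per kb. The lowest Serpinf1 value, 442 CPM per kb, lay above the highest Pgf value of 90.4. The lowest Vegfa value, 37.4, also lay above the highest Nrp1 value of 17.8. Every other pair of neighbours in this order overlapped between libraries. The exon length counts all annotated isoforms, which lowers the value of genes with long alternative ends such as Flt1, with 13504 exon bases.

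**Figure D1:**
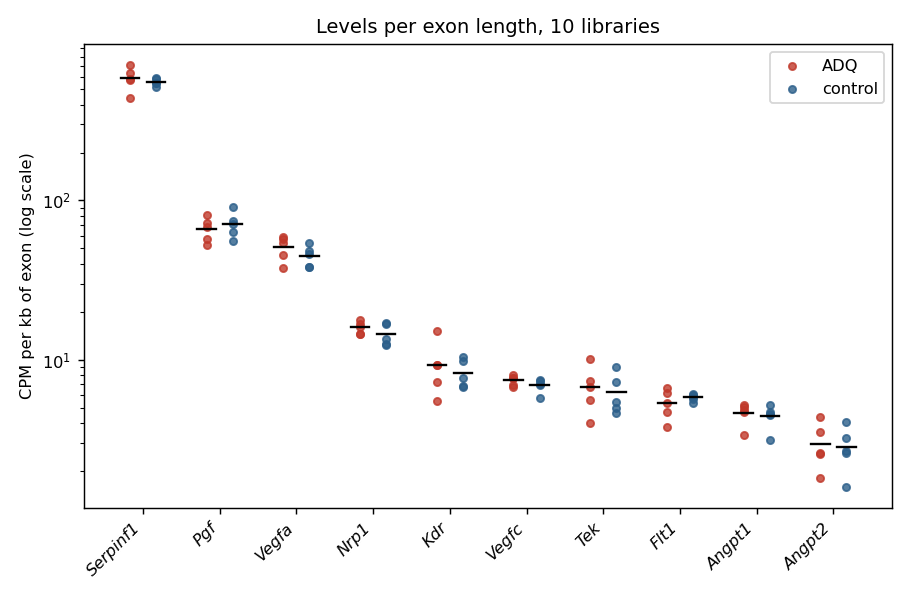
Level of each gene per kilobase of exon (log axis, CPM per kb) in 5 ADQ and 5 control libraries; points are libraries and bars are group means. Serpinf1 stands above all others at 442 to 708 CPM per kb, and the ADQ and control points of every gene overlap.

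The main comparison asks whether the set differed in the RPE/choroid complex of ADQ mice. None of the 10 genes rose or fell. With edgeR's quasi-likelihood test 0 of 10 passed an adjusted p of 0.05, where 0.827% of the 20684 genes tested did (0.74% higher and 0.087% lower in ADQ). None had an unadjusted p under 0.05, which 13.8% of all genes had. None passed with DESeq2, by which 3.65% of all genes did, or with limma voom, by which 3.52% did. In no gene did the ADQ and control libraries separate, as they did in 3.16% of all genes. The log2 fold changes of ADQ over control, 8 of 10 above 0 against 51.8% of all genes, had a median of 0.09, against 0.01 over all genes. In size all 10 were smaller than the median of all genes, 0.18. That median includes less precise genes, with a median SE of 0.18 over all genes against 0.14 in the set. Without control 5, 0 of 10 passed as well, with log2 fold changes of 0.12 for Vegfa, 0.046 for Vegfc, -0.17 for Pgf, 0.11 for Kdr, -0.10 for Flt1, 0.088 for Nrp1, -0.04 for Angpt1, 0.05 for Angpt2, 0.039 for Tek and 0.10 for Serpinf1. The sign of Angpt1 thus differs without it. The 95% intervals still allow differences from 0.714-fold to 1.64-fold for the least precise genes. In a bulk sample such as this, fewer cells of a type and less RNA per cell cannot be told apart.

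**Figure D2:**
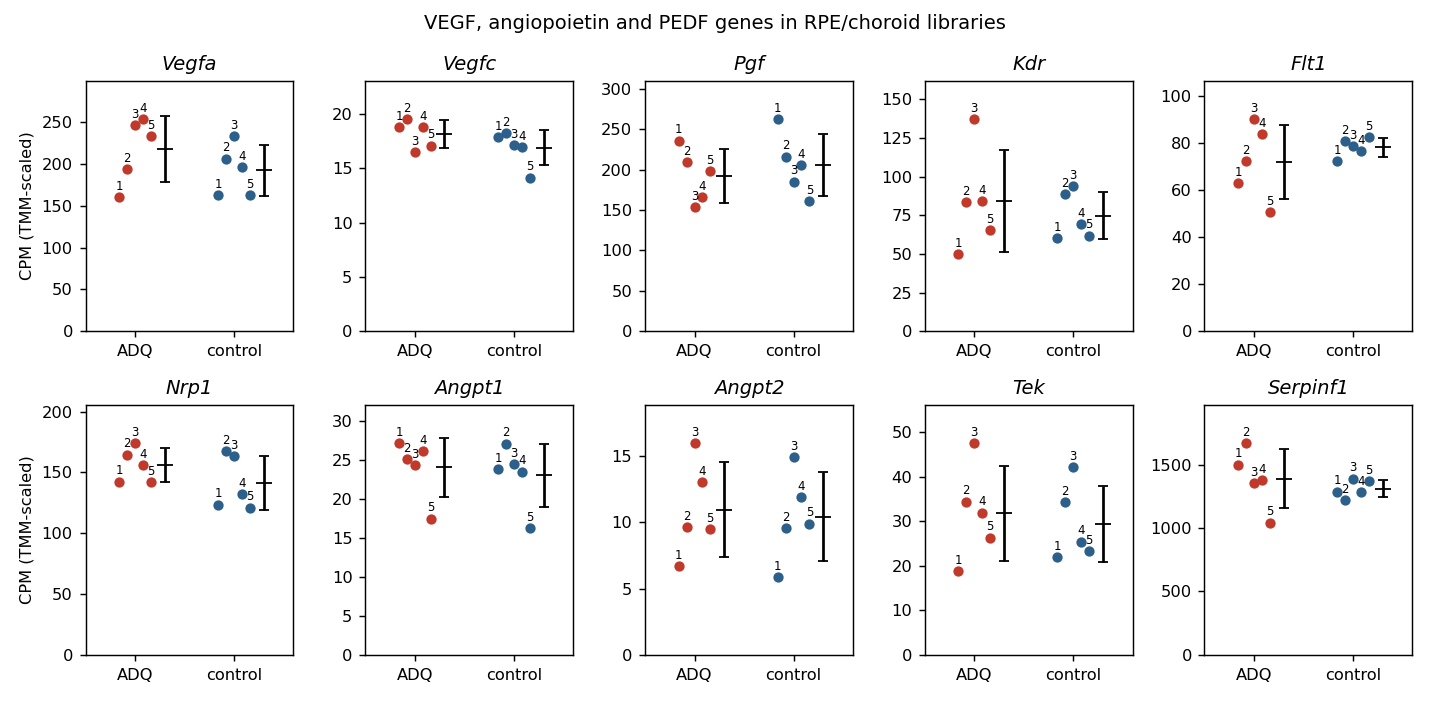
CPM of the 10 genes in each library (linear axes from 0; ADQ left, control right; small numbers give the replicate; the black mark and bar give mean ± SD of 5 libraries). The ADQ and control points overlap in all 10 genes.

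**Figure D3:**
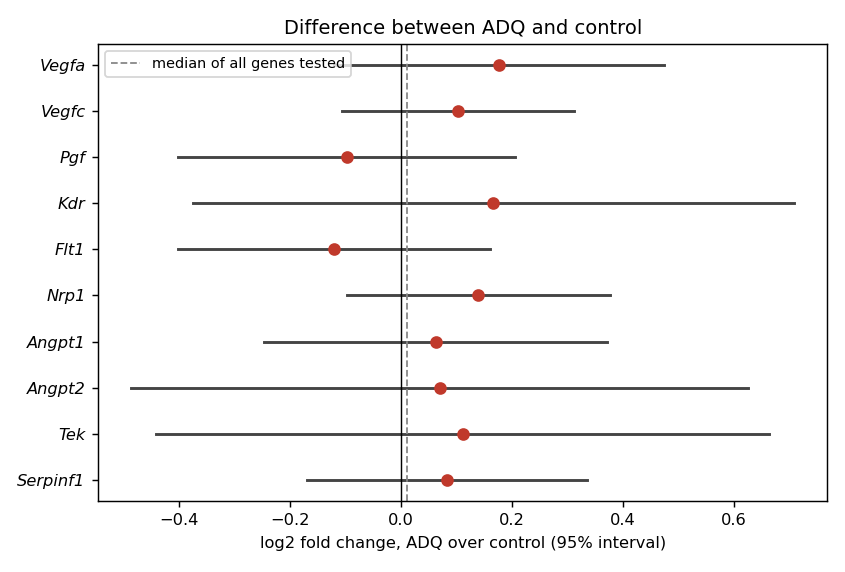
Log2 fold change of ADQ over control with its 95% interval from edgeR for the 10 genes; the dashed line is the median of all genes tested, 0.01. Every interval includes 0; the widest are those of Kdr, Tek and Angpt2.

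Among the ligands, Vegfa, the main growth and survival factor of the choroidal capillaries, was at 160.3, 194, 247, 254 and 233 CPM in ADQ 1 to 5, against 163, 207, 233, 197 and 163 CPM in control 1 to 5. The 2 highest libraries were ADQ 4 and ADQ 3, but ADQ 1 was the lowest of all 10. The means were 218 ± 39.5 CPM in ADQ and 192 ± 30.2 CPM in control (SD, n = 5 each). The log2 fold change was 0.18 (SE 0.14, edgeR adjusted p = 0.576), with a 95% interval from 0.921-fold to 1.39-fold. Vegfa (ENSMUSG00000023951) lies on the minus strand of chromosome 17 at 46016993 to 46032369 (GRCm38).

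Pgf encodes placental growth factor, a ligand of VEGF receptor 1. It was at 236, 209, 154, 166 and 199 CPM in ADQ 1 to 5, against 262, 216, 185, 205 and 161 CPM in control 1 to 5. ADQ 1 and control 1, which were low in Vegfa, were the 2 highest libraries in Pgf. Its log2 fold change was -0.10 (SE 0.14, edgeR adjusted p = 0.781), and the interval ran from 0.758-fold to 1.15-fold. Per kilobase Pgf exceeded Vegfa in 8 of 10 libraries; the ratio was 1.38 ± 0.518 in ADQ and 1.62 ± 0.45 in control (SD, n = 5 each).

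Vegfc encodes VEGF-C, the ligand best known for lymphatic growth through the receptor encoded by Flt4. It varied least of the set, at 18.8, 19.5, 16.5, 18.8 and 17.1 CPM in ADQ 1 to 5, against 17.9, 18.3, 17.2, 16.9 and 14.2 CPM in control 1 to 5. Control 5 was the lowest library and the other 9 lay within 16.5 to 19.5 CPM. Vegfc had a log2 fold change of 0.10 (SE 0.10, edgeR adjusted p = 0.645), with an interval from 0.93-fold to 1.24-fold.

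Among the receptors, Kdr was at 50.0, 83.6, 137, 84.1 and 65.3 CPM in ADQ 1 to 5, against 60.4, 88.7, 93.7, 69.4 and 61.8 CPM in control 1 to 5. Both the highest library, ADQ 3, and the lowest, ADQ 1, belonged to ADQ, a 2.74-fold range and the widest of the set. The log2 fold change was 0.17 (SE 0.25, edgeR adjusted p = 0.784), and it was -0.08 without ADQ 3. The interval, from 0.771-fold to 1.64-fold, is the one that reaches highest in the set.

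Flt1 was at 63.1, 72.2, 90.2, 83.8 and 50.8 CPM in ADQ 1 to 5, against 72.4, 81.0, 78.7, 76.6 and 82.8 CPM in control 1 to 5. The controls lay close together, with an SD of 4.03 CPM, inside the range of the ADQ libraries, whose SD was 15.8 CPM. For Flt1 the log2 fold change was -0.12 (SE 0.13, edgeR adjusted p = 0.696), and -0.02 without ADQ 5, the lowest library. Per kilobase Flt1 stood below Kdr in all 10 libraries, at a ratio of 0.61 ± 0.155 in ADQ and 0.721 ± 0.137 in control (SD, n = 5 each).

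Nrp1 encodes neuropilin 1, a co-receptor that strengthens signalling by VEGF-A through VEGF receptor 2. It was at 142, 165, 174, 156 and 142 CPM in ADQ 1 to 5, against 123, 167, 164, 132 and 121 CPM in control 1 to 5. Controls 1, 4 and 5 were below every ADQ library, while control 2 was above 4 of them and control 3 above 3. Its log2 fold change was 0.14 (SE 0.11, edgeR adjusted p = 0.581), with an interval from 0.935-fold to 1.3-fold.

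In the angiopoietin branch, Angpt1 was at 27.2, 25.1, 24.4, 26.2 and 17.5 CPM in ADQ 1 to 5, against 23.8, 27.1, 24.5, 23.5 and 16.2 CPM in control 1 to 5. Replicate 5 was the lowest of each group, and the other 8 libraries ran from 23.5 to 27.2 CPM. Angpt1 had a log2 fold change of 0.06 (SE 0.14, edgeR adjusted p = 0.865), and the interval ran from 0.843-fold to 1.29-fold. The exons of Angpt1, on chromosome 15, overlap an annotated antisense gene, Gm17473; whether the counting used strand is not given in the sources used here, so reads of the 2 genes may be mixed.

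Angpt2 was the rarest transcript, at 6.71, 9.63, 16, 13.0 and 9.49 CPM in ADQ 1 to 5, against 5.89, 9.55, 14.9, 11.9 and 9.91 CPM in control 1 to 5. Replicate 1 was the lowest and replicate 3 the highest of each group. The log2 fold change was 0.07 (SE 0.26, edgeR adjusted p = 0.92), with an interval from 0.714-fold to 1.54-fold. It was -0.11 without ADQ 3 and -0.07 without control 1. Angpt2 stood below Angpt1 per kilobase in all 10 libraries, and the ratio was 0.656 ± 0.221 in ADQ and 0.657 ± 0.228 in control (SD, n = 5 each). The ratio ranged from 0.348 to 0.926 over the ADQ libraries and from 0.349 to 0.862 over the controls.

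Tek was at 18.7, 34.4, 47.6, 31.9 and 26.3 CPM in ADQ 1 to 5, against 21.9, 34.2, 42.1, 25.4 and 23.4 CPM in control 1 to 5. As in Kdr, ADQ 3 was the highest library and ADQ 1 the lowest. Tek had a log2 fold change of 0.11 (SE 0.25, edgeR adjusted p = 0.863), and -0.08 without ADQ 3; the interval ran from 0.737-fold to 1.58-fold.

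Serpinf1 was at 1499, 1670.3, 1354, 1375 and 1042 CPM in ADQ 1 to 5, against 1286, 1222, 1389, 1283 and 1369 CPM in control 1 to 5. The controls fell within the range of the ADQ libraries, which were more spread, with an SD of 231 CPM in ADQ and 68.4 CPM in control. The log2 fold change was 0.08 (SE 0.12, edgeR adjusted p = 0.77), with an interval from 0.89-fold to 1.26-fold. It was 0.17 without ADQ 5, the lowest library, and 0.01 without ADQ 2, the highest. The ratio of Vegfa to Serpinf1 per kilobase, the growth factor over the inhibitor, was 0.0896 ± 0.0273 in ADQ and 0.081 ± 0.0128 in control (SD, n = 5 each). It ranged from 0.0589 to 0.123 in ADQ and from 0.0654 to 0.0931 in control. Serpinf1 (ENSMUSG00000000753) lies on the minus strand of chromosome 11 at 75409769 to 75422701 (GRCm38).

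The receptors Kdr and Tek followed each other from library to library, whatever the group. As a description, likeness was measured as the SD over the 10 libraries of the log2 ratio of 2 genes. A low value means that the ratio held steady, either because both genes moved together or because both varied little. Of the 45 pairs in the set, Kdr with Tek had the lowest SD, 0.11, while Kdr alone had an SD of 0.41. The ratio of Tek to Kdr per kilobase stayed between 0.665 and 0.861 in all 10 libraries. Pgf with Angpt2 had the highest SD, 0.68, followed by Pgf with Tek, 0.60, and Pgf with Kdr, 0.59.

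Among the 15924 other genes that averaged 1 CPM or more, Tek was also the gene most like Kdr, ahead of Sh3bp5 (SD 0.13) and the predicted gene Gm12866 (SD 0.14). Vegfa alone had an SD of 0.26 and Serpinf1 alone one of 0.18. For Vegfa the 3 nearest were Ctps, Sugp2 and Gpc1 (SD 0.07, 0.07 and 0.08), and for Serpinf1 they were Mxra8, Foxn3 and Sh3glb1 (SD 0.08 each). None of these 9 genes, Tek among them, passed the test between ADQ and control, with adjusted p from edgeR of 0.508 or more. They were picked for a steady ratio, over both groups, to genes that did not pass. That choice largely fixed this outcome, so no conclusion is drawn from it.

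**Figure D4:**
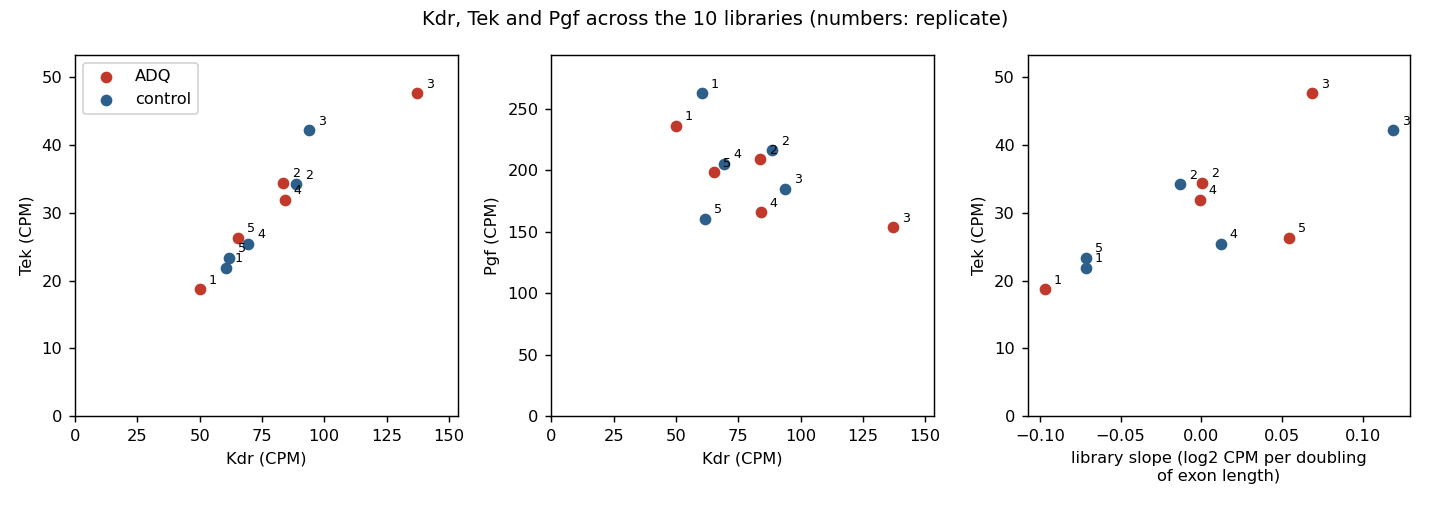
Tek against Kdr, Pgf against Kdr, and Tek against the exon length slope of each library (CPM; slope in log2 CPM per doubling of exon length; points are the 10 libraries, numbered by replicate). ADQ 1 is the lowest and ADQ 3 the highest library in both Kdr and Tek, with the groups mixed between them, and the 3 libraries with the lowest slopes are the 3 lowest in Tek.

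A property of the libraries that reaches far beyond the set was also examined. Over 15911 genes, the log2 CPM of each library relative to the mean of all was regressed on log2 exon length. The slope per doubling of length was -0.10, 0.00045, 0.07, -0.00094 and 0.05 in ADQ 1 to 5, against -0.07, -0.01, 0.12, 0.01 and -0.07 in control 1 to 5. The 3 libraries with the lowest slopes, ADQ 1, control 1 and control 5, were also the 3 lowest in Kdr and in Tek, and control 3 and ADQ 3, with the highest slopes, were the 2 highest in both. ADQ 5 did not follow this order: its slope was the third highest, while it ranked 7 of 10 from the top in Kdr, at 65.3 CPM, and 6 of 10 in Tek, at 26.3 CPM. Flt1, with the longest exons of the set, followed the slope less closely. In Flt1 control 5 ranked 3 of 10, at 82.8 CPM, and ADQ 5 was the lowest, at 50.8 CPM. ADQ 3 was the highest library in Flt1 and ADQ 1 ranked 9 of 10. The slopes averaged 0.0051 ± 0.065 in ADQ and -0.0051 ± 0.0782 in control (SD, n = 5 each). With the slope as a covariate, an alternative chosen after the data were seen, the log2 fold change of Kdr was 0.09 (SE 0.19) and that of Tek 0.05 (SE 0.15).

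Endothelial markers were set beside these receptors. Of the 15 endothelial markers, Plvap, Eng and Emcn had the highest mean CPM. The 15 markers summed to 1104 to 1485 CPM in ADQ and 1318 to 1654 CPM in control. None passed the test; the median log2 fold change was -0.14, with 3 of 15 above 0. Their mean log2 CPM was 5.51, 5.64, 5.52, 5.48 and 5.23 in ADQ 1 to 5, against 5.4, 5.67, 5.55, 5.56 and 5.73 in control 1 to 5. ADQ 3, the highest library in Kdr and Tek, was thus in the middle of the range of this mean. Control 5, low in both receptors, was at its top. Single markers differed in ADQ 3, with Pecam1 at 50.3 CPM and Emcn at 148 CPM, against ADQ means of 39.2 and 164 CPM. With the endothelial marker mean as a covariate the log2 fold changes of Kdr, Tek and Flt1 were 0.26, 0.20 and -0.01, and 0 of the 10 genes of the set passed.

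The upstream sequences of Kdr and Tek, which varied together, and of Vegfa and Pgf, which did not, are printed for comparison. RefSeq windows (GRCm38.p6) were found for 8 of the 10 genes, all but Angpt1 and Angpt2. Each line gives the 250 bases before the most upstream RefSeq start in the source used, read 5′ to 3′ on the strand of the gene. The windows are chr5:75978456-75978705 (minus strand) for Kdr, chr4:94739039-94739288 (plus) for Tek, chr17:46032378-46032627 (minus) for Vegfa and chr12:85177314-85177563 (minus) for Pgf. The annotation that gave the exon lengths places Pgf at 85166635 to 85177790. By that annotation the Pgf window lies inside the gene and not upstream of it. Capitals mark matches on either strand to 4 motifs, none of which overlapped. The ETS core, bound by a factor family of endothelial genes, was searched as GGAAG. The Sp1 box of many promoters without a TATA box was searched as GGGCGG. For GATA factors the letters were AGATAA. The hypoxia response core was ACGTG.
Kdr: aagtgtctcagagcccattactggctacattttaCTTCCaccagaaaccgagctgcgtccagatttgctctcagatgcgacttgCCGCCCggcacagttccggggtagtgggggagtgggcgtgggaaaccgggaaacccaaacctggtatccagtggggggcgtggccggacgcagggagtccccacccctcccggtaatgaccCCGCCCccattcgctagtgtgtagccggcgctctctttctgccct
Tek: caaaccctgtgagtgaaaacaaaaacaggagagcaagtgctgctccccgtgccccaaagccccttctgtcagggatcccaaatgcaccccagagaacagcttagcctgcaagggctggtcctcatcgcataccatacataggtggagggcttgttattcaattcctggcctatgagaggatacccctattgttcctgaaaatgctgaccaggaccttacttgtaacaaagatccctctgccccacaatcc
Vegfa: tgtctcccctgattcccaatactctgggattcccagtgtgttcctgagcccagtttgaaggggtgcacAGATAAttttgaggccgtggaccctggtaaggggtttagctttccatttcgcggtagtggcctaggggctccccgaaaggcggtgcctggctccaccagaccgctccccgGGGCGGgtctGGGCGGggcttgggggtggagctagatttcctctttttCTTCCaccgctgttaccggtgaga
Pgf: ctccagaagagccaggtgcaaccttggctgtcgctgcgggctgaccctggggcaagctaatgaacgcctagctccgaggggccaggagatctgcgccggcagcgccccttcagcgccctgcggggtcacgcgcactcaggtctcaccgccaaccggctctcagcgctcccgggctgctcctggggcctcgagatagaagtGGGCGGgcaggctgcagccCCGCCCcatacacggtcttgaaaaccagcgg

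The Kdr window held 1 ETS core and 2 Sp1 boxes. The Tek window held none of the 4 motifs as spelled above, so the 2 windows share no match to these letters. The Vegfa window held 1 ETS core, 1 GATA core and 2 Sp1 boxes, and the Pgf window held 2 Sp1 boxes. None of these 4 windows held the letters ACGTG of the hypoxia response core. In the other 4 windows they occurred once, in Serpinf1. Only the exact letters given were searched, so variant forms of the motifs were not counted. Of 32851 windows of the same length, 64.1% held the ETS core, 32.7% the Sp1 box, 10% the GATA core and 16.6% the hypoxia response core. The GC content was 61.6% for Kdr, 51.2% for Tek, 59.2% for Vegfa and 68.4% for Pgf, against a median of 52.4% over all windows.

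Of 57 other genes of these pathways with enough counts for the test, 0 passed with edgeR, 10 had an unadjusted p under 0.05, where 13.8% of all genes did, and 29 lay above 0 in log2 fold change, with a median of 0.0022. With DESeq2 2 of 57 passed (Esm1 and Egln3), where 3.65% of all genes did, and with limma voom 2 of 57 (Esm1 and Thbs2), where 3.52% did; both shares are near that of all genes.

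In the list of VEGF-induced and tip cell genes, 0 of 10 passed, 2 of 10 were above 0 and the median log2 fold change was -0.37. Esm1, an endothelial proteoglycan gene induced by VEGF-A, was at 5.08, 6.18, 10.8, 5.82 and 5.85 CPM in ADQ 1 to 5, against 12.2, 15.9, 15.5, 15.8 and 6.26 CPM in control 1 to 5. Control 5 was at the level of the ADQ libraries and ADQ 3 stood above it; the other 4 controls were above every ADQ library. The log2 fold change was -0.96 (SE 0.26, edgeR adjusted p = 0.128), and -1.14 without control 5 (adjusted p = 0.0095). Of the adipocyte markers 0 of 9 passed and 0 of 9 were above 0, with a median log2 fold change of -1.42. Some of them were likewise low in control 5. Cfd, the adipsin gene, was at 1.3 to 7.27 CPM in ADQ and at 32.8, 75.2, 38.8, 50.0 and 2.66 CPM in control 1 to 5. Control 5 was also the lowest control in Cidec, Plin1, Car3, Retn, Adipoq and Fabp4. It was not in Plin4 and Lipe, at 15.4 and 33.4 CPM, against 11.1 to 15.9 and 31.0 to 35.7 CPM in controls 1 to 4. The part of adipocyte markers in the Esm1 value was not tested. In the authors' deposited table Esm1 had a log2 fold change of -1.09 and an adjusted p of 0.0256. Groups did not overlap in 1 of the 57 pathway genes, Aplnr, the apelin receptor gene, as was so in 3.16% of all genes. Aplnr was at a low level, 0.13 to 0.567 CPM in ADQ and 0.585 to 1.16 CPM in control (log2 fold change -1.16, edgeR adjusted p = 0.211). Dll4, the Notch ligand of tip cells, had a log2 fold change of -0.43, and the Notch target Hey1 one of 0.31.

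Among the other VEGF ligands and receptors, 0 of 4 passed and the median was -0.11. Vegfb, a ligand of VEGF receptor 1, was at 210.3 ± 36.9 CPM in ADQ and 260 ± 31.2 CPM in control (SD, n = 5 each; log2 fold change -0.30, edgeR adjusted p = 0.314). Vegfd, a lymphatic ligand, had a log2 fold change of -0.68 at a mean of 1.33 CPM in ADQ and 2.12 CPM in control. The receptor genes Flt4 and Nrp2 had log2 fold changes of 0.11 and 0.09. In the angiopoietin and Tie list, 0 of 5 passed and the median was -0.09; Tie1, the partner receptor of Tie2, had a log2 fold change of -0.09, Ptprb, the phosphatase that acts on Tie2, -0.11, Foxo1, a transcription factor that drives Angpt2, 0.12, and Svep1, a matrix protein, 0.15. Of 3 candidate receptor genes for PEDF none passed, with log2 fold changes of -0.12 for Pnpla2, -0.28 for Rpsa and 0.14 for Lrp6.

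In the VEGF receptor signalling list, 0 of 10 passed and the median was 0.04. Prkcb, which encodes protein kinase C beta, was at 57.1 to 74.6 CPM in ADQ and 47.6 to 59.8 CPM in control, so that ADQ 1 lay below control 3 (log2 fold change 0.32, edgeR adjusted p = 0.149). In the authors' deposited table its adjusted p was 0.0396. With RPE marker level as a covariate in edgeR the log2 fold change was 0.22 (adjusted p = 0.418). The RPE markers leaned lower in ADQ, with a median of -0.18 and 2 of 10 above 0, so this covariate is not independent of group. Of 10 macrophage markers 10 were above 0 and 2 rose, Aif1 (edgeR adjusted p = 0.00756) and Adgre1 (0.0476), with sums of 1722 to 2788 CPM in ADQ and 1652 to 2150.0 CPM in control. Of 9 T, B and NK cell markers 9 were above 0 and 0 passed, with a median of 1.26 and sums of 62.3 to 92.5 CPM in ADQ and 22.8 to 67.0 CPM in control. Their part in the Prkcb value was not tested. Akt1, Plcg1 and Mapk3, kinases and a phospholipase downstream of the receptors, had log2 fold changes of -0.31, 0.19 and -0.17.

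Among endogenous angiogenesis inhibitors, 0 of 9 passed, 6 of 9 were above 0 and the median was 0.10. Thbs2, thrombospondin 2, was at 44.8 to 115 CPM in ADQ and 30.1 to 76.2 CPM in control, with control 3 above 2 of the 5 ADQ libraries (log2 fold change 0.82, edgeR adjusted p = 0.321). The authors' deposited table gave it a log2 fold change of 1.05 and an adjusted p of 0.0142. With RPE marker level as a covariate, which leaned lower in ADQ, the edgeR value was 0.22 (adjusted p = 0.589). Thbs1, Timp3 and Sema3f had log2 fold changes of 0.66, 0.48 and -0.16. Of 8 fibroblast and sclera markers 6 were above 0 and 0 passed, with a median of 0.34. Their mean log2 CPM ran from 8.12 to 9.03 in ADQ and from 8.13 to 8.85 in control. It had the same 4 highest libraries as Thbs2, namely ADQ 2, 3 and 4 and control 3. The part of these markers in the Thbs2 value was not tested.

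In the hypoxia list, 0 of 16 passed, 9 of 16 were above 0 and the median was 0.01. With edgeR 5 of 16 had an unadjusted p under 0.05, where 13.8% of all genes did, and these had log2 fold changes of both signs. Egln3, an oxygen-sensing prolyl hydroxylase, was at 3.79 to 6.18 CPM in ADQ and 5.89 to 12.8 CPM in control (log2 fold change -0.73, edgeR adjusted p = 0.161), with ADQ 2 above control 1. Hif1a, the oxygen-regulated transcription factor, had a log2 fold change of 0.29, and the glycolytic targets Pgk1 and Ldha had -0.26 and -0.24, none of which passed.

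**Figure D5:**
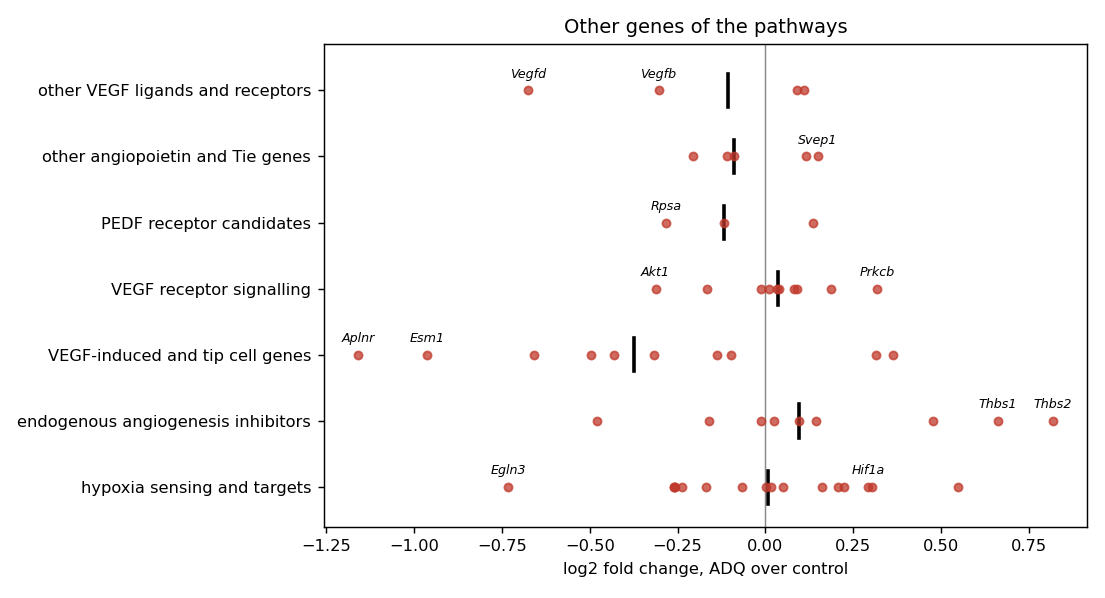
Log2 fold change of ADQ over control for 57 other genes of these pathways by list (points are genes, black bars are list medians). No gene passed with edgeR; the VEGF-induced and tip cell genes have the lowest median, -0.37.

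In the authors' deposited table, where 5.42% of 15860 genes had an adjusted p under 0.05, 0 of the 10 genes did. Its smallest adjusted p in the set was 0.225, for Vegfa, with a log2 fold change of 0.23, and its largest log2 fold changes below 0 were those of Pgf, -0.18, and Flt1, -0.06.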

How the data were processed

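Per the labels' protocols, RNA was taken up in TRIzol and cleaned with a NucleoSpin kit, and SMARTer chemistry made the cDNA. Per the submitters' processing notes the build was GRCm38 and the tools included DRAGEN, edgeR and limma; no source used here gives the counting settings. The authors deposited whole-number counts per gene and library, in 55774 rows of which 287 repeats were removed. The authors' deposited table also holds log2 CPM values per library, log2 fold changes, raw and adjusted p-values, and limma statistics such as the B score. No value column was left unused.

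The count test was that of edgeR 4.0.16, run in R 4.3.3 with limma 3.58.1: filterByExpr (minimum count 10, minimum total 15) kept 20684 genes, with TMM scaling, a robust quasi-likelihood model of group alone, and Benjamini-Hochberg adjustment over all genes at 0.05. The fit was tested on simulated data. Standard errors were obtained by dividing the absolute log2 fold change by the root of the F statistic. Exon lengths and positions come from GENCODE M21, which holds 99.4% of the genes, and promoter windows from RefSeq. The smallest chi-square between 2 libraries was 33.9 per degree of freedom (genes totalling 500 counts or more), so no library was a duplicate. Named genes are the whole set and, from each pathway list, up to 4 genes with the smallest p. The genes and lists were chosen with earlier results of these data known. Alternatives were other scalings and count filters, DESeq2 1.42.0, voom, omission of each library, a fit without robust weights, a replicate block, endothelial or RPE marker covariates and, chosen after seeing the data, the length slope.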

Additional observations from a re-analysis of the deposited data

Results flagged for a closer look

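Of 84 groups of 5 libraries examined for the 10 genes, 5 ratios between them and the pathway genes named above, 8 held 1 library far from the others; chance alone gives about 1 in 20. None of the 10 genes was among them. The ratio of Tek to Kdr per kilobase was high in control 3, at 0.861 against 0.694 to 0.739 in the other controls. Esm1 was high in ADQ 3, at 10.8 CPM, the other ADQ values being 5.08 to 6.18, and Lrp6 was high in the same library, at 80.3 CPM against 62.7 to 66.7. Akt1 and Hey1 were low in control 5, at 218 CPM against 294 to 301 and at 11.5 CPM against 23.5 to 27.5 in the other controls. Thbs2 was high in control 3 at 76.2 CPM against 30.1 to 39.1, Nrp2 was high in control 2 at 75.9 CPM against 66.7 to 67.7, and Tie1 was low in control 1 at 94.4 CPM against 115 to 121.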

How the results depend on the processing

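In all 22 alternatives 0 of the 10 genes passed, with adjusted p from 0.226 upward. The sizes were not stable: the log2 fold change of Vegfa ranged from 0.016 (RPE marker level as covariate) to 0.27 (without ADQ 1, adjusted p = 0.232), that of Serpinf1 from 0.0042 to 0.17 and that of Flt1 from -0.34 to -0.012, without a change of sign, and that of Vegfc from 0.046 to 0.19. The other 6 genes changed sign under at least 1 alternative. Leaving out 1 library at a time gave -0.081 to 0.31 for Kdr, -0.079 to 0.28 for Tek, -0.11 to 0.23 for Angpt2, -0.040 to 0.16 for Angpt1, -0.18 to 0.0079 for Pgf and, outside the set, -0.091 to 0.28 for Flt4. With RPE marker level as a covariate the values were -0.34 for Kdr, -0.37 for Tek, -0.36 for Angpt2, -0.031 for Nrp1, -0.039 for Angpt1, 0.071 for Pgf, -0.034 for Nrp2, -0.39 for Flt4, -0.023 for Foxo1, -0.31 for Svep1, 0.022 for Rpsa and -0.031 for Lrp6; with endothelial marker level Tie1 was at 0.021 and Ptprb at 0.029. The cause was not tested.

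The count over all genes, 171, was 755 with DESeq2, 728 with voom, 257 with endothelial marker level, 535 with the length slope and 78 to 357 without 1 library. It was 96 without control 1, 78 without control 4, 357 without control 5, and 81, 99 and 87 without ADQ 2, 3 or 4. Of the 57 pathway genes, where 0 passed, 2 did with DESeq2, 2 with voom, 2 with the length slope (Esm1 and Prkcb), 1 with RPE marker level (Esm1), and 0 to 1 without 1 library (Esm1, without control 5). The number in the titles is shared by ADQ and control samples. Deviations from the group means correlated at 0.10, 0.04, 0.26, 0.01 and -0.13 for numbers 1 to 5. ADQ 3 and control 3 correlated best with each other, but not every library correlated best with its own number. Whether samples of the same number were handled together was not tested. With the number as a replicate block 694 genes and 3 pathway genes (Prkcb, Esm1 and Thbs2) passed, and 0 of the 10 genes.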

Other observations

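ADQ 5 was the lowest of the 10 libraries in Flt1, at 50.8 CPM, and in Serpinf1, at 1042 CPM, and the lowest ADQ library in Angpt1, at 17.5 CPM, but not in Vegfa, at 233 CPM. Its ratio of Vegfa to Serpinf1 per kilobase, 0.123, was the highest of all 10 libraries, and so was its ratio of Vegfa to Flt1, at 14.5, with ADQ 1 to 4 at 8.0 to 9.54. The endothelial marker mean of ADQ 5, 5.23 log2 CPM, was also the lowest, and its skeletal muscle marker mean was 4.67 log2 CPM, with ADQ 1 to 4 at 6.54 to 7.18 and controls at 6.32 to 7.6. The part of tissue composition in these values was not tested.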
